A study of Mus musculus with 12 samples.

Results

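Polyamine pathway mRNAs, some of them with known control of translation, are described here in polysomal and sub-polysomal RNA of mouse mammary carcinoma cells. The genes are ornithine decarboxylase (Odc1), the antizymes Oaz1 and Oaz2, the antizyme inhibitor Azin1, S-adenosylmethionine decarboxylase (Amd1), spermidine synthase (Srm), spermine synthase (Sms) and the acetyltransferase Sat1. They were chosen by name, as the genes whose symbol in the deposited count table equals 1 of these 8 symbols, and they are 8 of the 55376 genes in that table. All 8 passed the filter on low counts, as did 12224 genes of the whole table.

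The study asked whether METTL7A1, a putative methyltransferase, alters the ribosome loading of particular mRNAs. It used 4T1 cells, an established mouse mammary carcinoma line. The mock cells carried the empty vector as a stable transfection, and the METTL7A1 cells carried FLAG-tagged full-length METTL7A1 cDNA behind the CMV promoter of pBICEP-CMV-2, both under G418 selection. Both kinds of cells were treated with 0.1 mg/ml cycloheximide for 5 min, lysed and run on sucrose gradients, from which fractions 3 to 7 (free ribosomal subunits and monosomes) were pooled as sub-polysomal RNA and fractions 8 to 11 (light and heavy polysomes) as polysomal RNA. Each of the 4 groups, mock sub-polysomal, mock polysomal, METTL7A1 sub-polysomal and METTL7A1 polysomal, had 3 libraries; their replicate letters are A, B and C for mock and D, E and F for METTL7A1 cells. The study describes its gradient profiles as typical of 3 or more separate runs on biological triplicates. The labels do not say whether the sequenced replicates were separate cultures or transfections, so the p-values measure the spread between these samples.

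Polyamines are small cations that bind nucleic acids and that growing cells, tumour cells in particular, make in large amounts from ornithine and S-adenosylmethionine. Odc1 makes putrescine, Srm and Sms extend it to spermidine and spermine with a group that Amd1 provides, and Sat1 starts the way back by acetylation. Much of the control is translational: polyamines favour the ribosomal frameshift that antizyme synthesis needs, antizyme takes ornithine decarboxylase to the proteasome, the antizyme inhibitor binds antizyme in its place, and a short open reading frame upstream of the Amd1 start codon stalls ribosomes when polyamines are plentiful.

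The libraries held 1817520 to 5738989 counts in mock sub-polysomal RNA, 5966935 to 6966156 in mock polysomal RNA, 3670942 to 5171156 in METTL7A1 sub-polysomal RNA and 5358491 to 6890725 in METTL7A1 polysomal RNA. The least abundant member, Sms, had at least 99 counts in each library. Levels are given as CPM (counts scaled to a common library total) after TMM scaling, and changes as log2 ratios of groups from edgeR's quasi-likelihood fit to all 12 libraries, with p-values adjusted over the 12224 tested genes. A gene counts as changed at an adjusted p below 0.05, and a strict call needs an adjusted p below 0.01 together with a log2 change larger in size than 1.5. Because every library is scaled to its own total, a change between pools says how an mRNA is distributed relative to other mRNAs, not which share of its molecules is on polysomes.

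The labels were checked against marker genes. Mettl7a1 itself stood at 1.26 to 3.28 CPM in the 6 mock libraries and at 236 to 395 CPM in the 6 METTL7A1 libraries. Its log2 change was 6.60 in polysomal RNA (SE 0.24, adjusted p = 5.44e-13 from edgeR) and 6.93 in sub-polysomal RNA (SE 0.27, adjusted p = 4.51e-12 from edgeR), higher in each METTL7A1 library than in any mock library. All 6 epithelial markers were tested and summed to 2636 to 5989 CPM per library. Krt7 had the highest mean CPM of them over all libraries (1162), but in mock sub-polysomal RNA Krt18 was higher (872 against 824 CPM). Of 3 leukocyte markers, Cd68 was tested and gave 20 to 167 counts, Cd3e had 0 counts throughout and Ptprc at most 1. Some markers differed between genotypes: Cd68 by a log2 of 1.56 (SE 0.23) in polysomal and 0.80 (SE 0.27) in sub-polysomal RNA, and Neat1 by 0.74 (SE 0.25) and 0.68 (SE 0.24), higher in METTL7A1 cells. The epithelial markers did not move one way: their log2 differences ran from -0.36 (Krt14) to 0.82 (Krt8) in polysomal RNA, where Cdh1 (0.49), Krt7 (0.47), Krt18 (0.61) and Krt8 passed the test as higher, and from -0.71 (Epcam) to 0.81 (Krt8) in sub-polysomal RNA, where Epcam and Krt14 (-0.56) passed as lower and Krt8 as higher. Neither endothelial marker was tested: Cdh5 had at most 4 counts and Pecam1 at most 2. Of 3 fibroblast markers Pdgfra gave 4 to 43 counts, while Pdgfrb had 0 and Col1a1 at most 1. The markers of the pools differed in part as their labels say. The nuclear RNA Neat1 had a log2 change from sub-polysomal to polysomal RNA of -1.95 in mock (SE 0.26, adjusted p = 9.14e-06 from edgeR) and -1.90 in METTL7A1 cells (SE 0.25, adjusted p = 4.10e-06 from edgeR), and Malat1 had values of -0.82 (SE 0.33) and -0.96 (SE 0.30), with adjusted p = 0.04997 and 0.0100 from edgeR. In mock cells the call of Malat1 was lost with limma-voom (-0.80), factors within each pool (-0.40) and scaling to Actb (-0.89). It was also lost there without mock sub-polysomal replicate A (-0.90) or C (-0.35) and without mock polysomal replicate A (-0.63) or C (-0.84). The same held without METTL7A1 sub-polysomal replicate F (-0.82) and METTL7A1 polysomal replicate D (-0.82) or F (-0.82). In METTL7A1 cells the call of Malat1 was lost with factors within each pool (-0.52) and without METTL7A1 sub-polysomal replicate D (-0.72) or polysomal replicate E (-0.70). The well translated Pkm mRNA had log2 changes of 0.97 (SE 0.16, adjusted p = 7.01e-05 from edgeR) and 0.97 (SE 0.16, adjusted p = 4.00e-05 from edgeR). The other markers of translated mRNA passed the test in neither kind of cell, with 0.33 (SE 0.18, adjusted p = 0.124 from edgeR) and 0.41 (SE 0.18, adjusted p = 0.0537) for Eef2, and 0.08 (SE 0.16, adjusted p = 0.706) and 0.24 (SE 0.16, adjusted p = 0.205) for Actb, also a control mRNA. In METTL7A1 cells Eef2 was called higher with DESeq2 (0.36), limma-voom (0.40), factors within each pool (0.84) and GC offsets (0.79). It was also called there with these libraries fitted alone (0.41) and without mock sub-polysomal (0.40) or mock polysomal (0.41) replicate A. In mock cells Eef2 was called with factors within each pool (0.76) and GC offsets (0.43). Factors within each pool called Actb higher in both (0.51 and 0.68). The second control mRNA, Mmp14, had values of 1.20 (SE 0.20) and 1.29 (SE 0.21). The study used Actb and Mmp14 as negative controls for a shift to polysomes upon METTL7A1 expression, not for a difference between pools.

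The mRNAs differed widely in level once counts were divided by gene length. In mock polysomal RNA the mean level in CPM per kilobase was 308 ± 30.6 (SD, n = 3) for Odc1, 255 ± 19.9 for Srm and 178 ± 70.7 for Oaz1. Azin1 (71.7 ± 11.9) and Sat1 (65.2 ± 18.3) came next and lay within each other's spread. Amd1 (28.6 ± 5.57) and Oaz2 (21.2 ± 7.36) also lay within each other's spread, and Oaz2 was not separated beyond its spread from Sms (13.9 ± 0.325), which had the lowest mean. The order was another one in mock sub-polysomal RNA, where Oaz1 led with 649 ± 145 CPM per kilobase (SD, n = 3), ahead of Odc1 (429.5 ± 42.2), Srm (259.8 ± 36.0) and Sat1 (118 ± 7.25). Azin1 (41.2 ± 12.8), Amd1 (36.5 ± 8.64) and Oaz2 (33.4 ± 2.10) were not separated beyond their spread there, and Sms was again lowest (13.5 ± 2.21). In mock cells the mRNA of the enzyme thus led in polysomal RNA and that of its antizyme in sub-polysomal RNA. In METTL7A1 cells Srm led in polysomal RNA (267 ± 14.0 CPM per kilobase), ahead of Odc1 (209 ± 4.80), and Oaz1 led in sub-polysomal RNA (775 ± 50.7), ahead of Srm (384 ± 29.9).

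**Figure D1:**
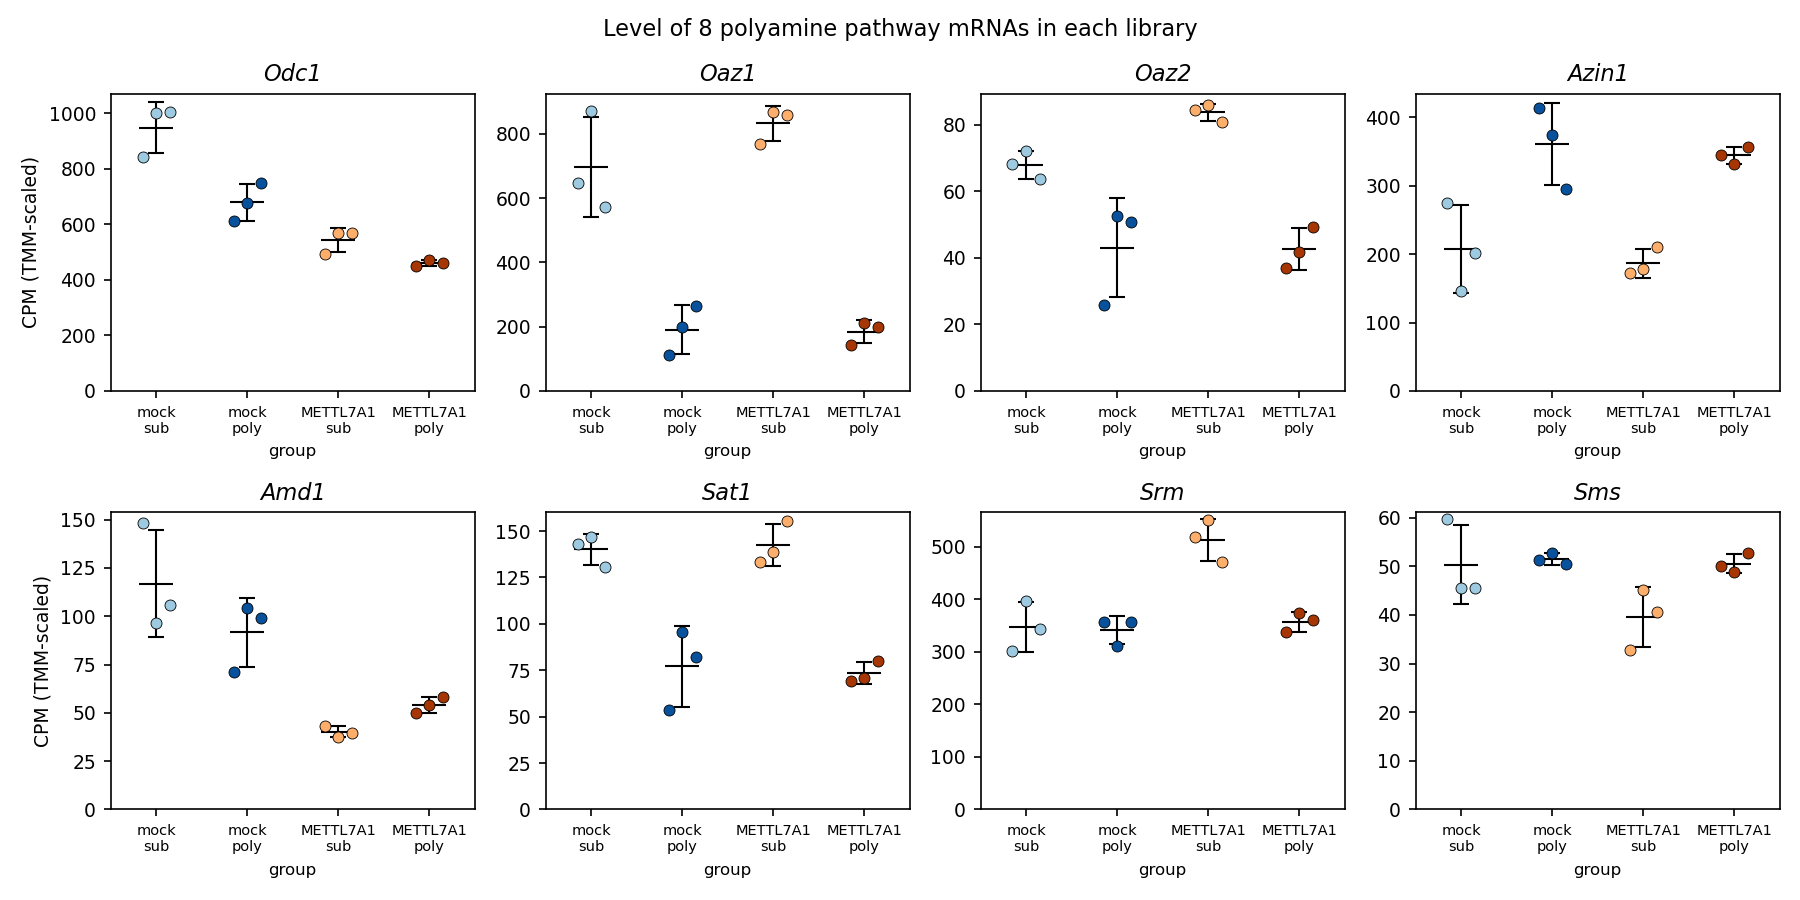
Level of each mRNA in CPM (y axis, linear, from 0) in the 12 libraries by group (x axis; sub, sub-polysomal; poly, polysomal). Points are libraries, and bars are the mean and SD of 3 libraries. Oaz1 stands at 573 to 873 CPM in the 6 sub-polysomal libraries and at 112 to 263 CPM in the 6 polysomal libraries, and Odc1 and Amd1 are lower in each METTL7A1 library than in any mock library.

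Polysomal RNA was first compared with sub-polysomal RNA within each kind of cell, which asks how each mRNA is distributed between polysomes and the fractions with free subunits and monosomes. In mock cells 1 of the 8 mRNAs (Azin1) was higher in polysomal RNA, against 23.3% of all tested genes. In the same cells 4 (Oaz1, Sat1, Oaz2 and Odc1) were lower, against 23.7% of all tested genes. The median log2 change of the 8 was -0.41, against 0.05 over all tested genes. In METTL7A1 cells 2 (Azin1 and Amd1) were higher, against 30.0%, and 4 (Oaz1, Oaz2, Sat1 and Srm) were lower, against 29.3%. Here the median log2 change was -0.38, against 0.06 over all tested genes. Oaz1 alone met the strict call, in mock cells (7.55% of all tested genes) and in METTL7A1 cells (12.1%). In mock cells that strict call was lost with scaling factors computed within each pool (-1.45).

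The scaling sets the zero of these changes. With scaling factors computed within each pool, the median log2 change over all tested genes moved to 0.48 in mock and 0.49 in METTL7A1 cells. Relative to that median, the change of Oaz1 was -1.93 in mock and -2.24 in METTL7A1 cells, and that of Azin1 was 0.75 and 0.82. Under the reported scaling the same differences from the median were -1.92 and -2.23 for Oaz1 and 0.75 and 0.82 for Azin1. The direction of a member whose change is small, and the calls of Odc1, Oaz2, Srm and Sms in mock cells and of Srm and Sms in METTL7A1 cells, depended on that zero: not relative to the median, with those factors Odc1 (-0.06) and Oaz2 (-0.23) in mock cells and Srm (-0.09) in METTL7A1 cells did not pass the test, and Srm in mock cells (0.40) and Sms in both (0.48 and 0.78) were called higher.

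**Figure D2:**
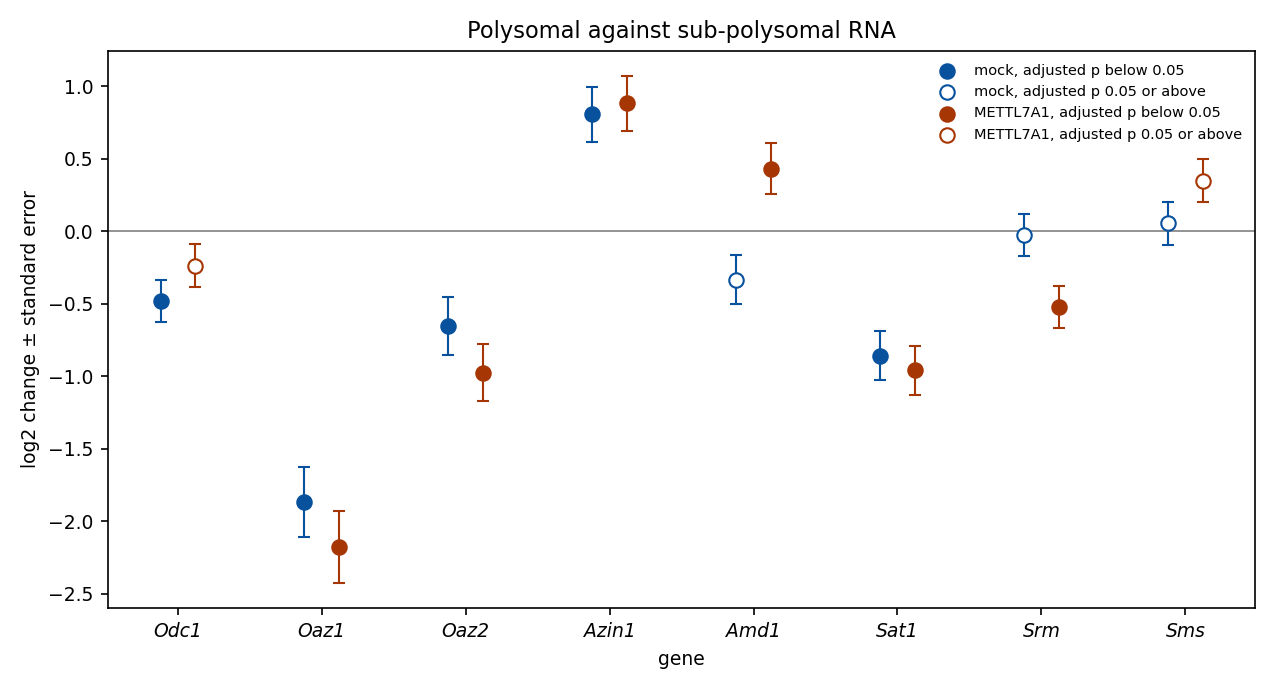
Log2 change of each mRNA from sub-polysomal to polysomal RNA (y axis) in mock and METTL7A1 cells. Bars are standard errors from edgeR; filled points have an adjusted p below 0.05. Oaz1 lies lowest (-1.87 and -2.18) and Azin1 highest (0.81 and 0.88) in both kinds of cells.

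The enzyme at the head of the pathway comes first. Odc1 (chr12:17544794-17551084, plus strand, GRCm38) encodes ornithine decarboxylase, which commits ornithine to polyamine synthesis and is the target of antizyme. In mock cells its level was 841, 999 and 1005 CPM in sub-polysomal replicates A to C and 613, 676 and 748 CPM in polysomal replicates A to C. The 3 polysomal libraries all lay below the 3 sub-polysomal ones. The log2 change was -0.48 (SE 0.15, adjusted p = 0.0109 from edgeR). The call was lost with no filter on low counts (-0.43, adjusted p = 0.0521) and with the mock libraries fitted alone (-0.48, adjusted p = 0.0507), over a range of adjusted p from 7.85e-05 to 0.728 across the alternatives that keep all libraries. In METTL7A1 cells the level was 492, 570.0 and 567 CPM in sub-polysomal replicates D to F and 449.7, 471 and 462 CPM in polysomal replicates D to F. The pools again did not overlap, but they were closer together. Their log2 difference of -0.24 (SE 0.15) did not pass the test (adjusted p = 0.168 from edgeR). DESeq2 (-0.28) and scaling to Actb (-0.48) called it lower there, and with factors within each pool the difference took the other sign (0.20). Its copies Gm7993, Gm9260, Gm9115, Gm17709 and Rps7-ps2 together had 0.758% of the counts of Odc1.

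The antizymes bind ornithine decarboxylase, and their full-length proteins are made only when the ribosome shifts frame at the end of a short first reading frame. Oaz1 lies at chr10:80826656-80829290 (plus strand) and Oaz2 at chr9:65676548-65690300 (plus strand) of GRCm38. Both sites are shown because this step sets them apart from the other mRNAs described here. The GENCODE principal transcripts (Oaz1-207 and Oaz2-206) join the reading frames by leaving out 1 base, the T of the stop codon, at position 80828295 of chromosome 10 and position 65686272 of chromosome 9. The sequences around it, with the stop codon of the first frame in capitals, are these, from transcripts Oaz1-205 (chr10:80828265-80828324, plus strand) and Oaz2-203 (chr9:65686242-65686301, plus strand).
Oaz1: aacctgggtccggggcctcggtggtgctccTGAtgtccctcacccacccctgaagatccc
Oaz2: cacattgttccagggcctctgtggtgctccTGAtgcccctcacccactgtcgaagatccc
In both, a TCC codon precedes the TGA, and 49 of the 60 bases are identical. The first frame has 68 codons before the stop in Oaz1 and 32 in Oaz2, and the joined frames have 227 and 189 codons.

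Oaz1 mRNA had the largest change between pools among the 8. In mock cells its level was 647, 873 and 573 CPM in sub-polysomal replicates A to C and 112, 198 and 263 CPM in polysomal replicates A to C. Each polysomal library had under 50% of the level of any sub-polysomal library, and polysomal replicate A was the lowest. The log2 change was -1.87 (SE 0.24, adjusted p = 8.96e-06 from edgeR). In METTL7A1 cells the level was 770.0, 868 and 859.6 CPM in sub-polysomal replicates D to F and 143, 210.3 and 199 CPM in polysomal replicates D to F, a log2 change of -2.18 (SE 0.25, adjusted p = 8.26e-07 from edgeR). The antizyme mRNA was thus depleted from the polysomal pool in all 6 polysomal libraries. A processed copy, Oaz1-ps, is 99.7% identical to Oaz1 over 685 bases and had 1.45% of the counts of Oaz1.

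Oaz2, the second and less abundant antizyme, lay on the same side. In mock cells it had 63.6 to 72.1 CPM in sub-polysomal and 25.8 to 52.6 CPM in polysomal RNA, a log2 change of -0.65 (SE 0.20, adjusted p = 0.0123 from edgeR). The pools did not overlap, and the lowest library was polysomal replicate A, without which the log2 change was -0.39 and still passed the test. In METTL7A1 cells it had 80.8 to 85.9 CPM in sub-polysomal and 37.0 to 49.4 CPM in polysomal RNA, a log2 change of -0.98 (SE 0.20, adjusted p = 0.000381 from edgeR), with no overlap between the pools.

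Azin1 (chr15:38487427-38519266, minus strand, GRCm38) encodes the antizyme inhibitor, an inactive relative of ornithine decarboxylase that releases the enzyme from antizyme. In mock cells its level was 274, 146 and 202 CPM in sub-polysomal replicates A to C and 413, 374 and 296 CPM in polysomal replicates A to C. The polysomal libraries all lay above the sub-polysomal ones, opposite to the antizymes. The log2 change was 0.81 (SE 0.19, adjusted p = 0.00182 from edgeR). In METTL7A1 cells the level was 172, 178 and 211 CPM in sub-polysomal replicates D to F and 345, 331 and 356 CPM in polysomal replicates D to F, a log2 change of 0.88 (SE 0.19, adjusted p = 0.000577 from edgeR). The pools were again fully apart. Azin1 thus moved with polysomes while the proteins' binding partners, Oaz1 and Oaz2, were enriched outside them. A transcript on the other strand, Gm49077, overlaps Azin1 by 358 bases and had 0 to 5 counts.

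Amd1 (chr10:40287458-40302186, minus strand, GRCm38) encodes S-adenosylmethionine decarboxylase, which supplies the group that turns putrescine into spermidine and spermine. Its short upstream reading frame, the element through which polyamines act on its translation, is shown because Amd1 gave the largest differences between mock and METTL7A1 cells. It lies at chr10:40302155-40302175 (minus strand, transcript Amd1-201), with its start and stop codons in capitals.
Amd1 upstream reading frame: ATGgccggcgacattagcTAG
It has 6 codons before its stop and ends 296 bases before the start codon of the enzyme. In mock cells the level of Amd1 was 148, 96.6 and 106 CPM in sub-polysomal replicates A to C and 71.3, 104 and 99.3 CPM in polysomal replicates A to C. The pools overlapped, with replicate A highest in sub-polysomal and lowest in polysomal RNA. The log2 difference was -0.34 (SE 0.17, adjusted p = 0.107 from edgeR).

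In METTL7A1 cells Amd1 had the other sign between the pools. The level was 43.4, 37.7 and 39.5 CPM in sub-polysomal replicates D to F and 50.0, 54.3 and 58.1 CPM in polysomal replicates D to F. All 3 polysomal libraries lay above the 3 sub-polysomal ones. The log2 change was 0.43 (SE 0.18, adjusted p = 0.0429 from edgeR). With factors within each pool the values were positive in mock (0.08) as well as in METTL7A1 cells (0.87). Relative to the median of all tested genes they were -0.39 and 0.37 with those factors, and also -0.39 and 0.37 under the reported scaling. The call in METTL7A1 cells lay close to the threshold. It was lost at a like size with DESeq2, RLE factors and the filter at 10 counts (0.39 in each) and with the replicate block (0.43). With scaling to Actb and with GC offsets it was lost at a smaller size (0.19 in each), and over these 6 alternatives adjusted p ran from 0.0625 to 0.494. It was also lost without METTL7A1 sub-polysomal replicate E (0.39) or F (0.42) and without METTL7A1 polysomal replicate D (0.49), E (0.43) or F (0.38).

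Near-identical copies limit what is known of Amd1. Amd2 matches it at 99.6% over 3202 bases and had 1 to 14 counts per library, and Amd-ps4 matches at 99.5% over 1005 bases and had 2 to 66 counts. Together with Amd-ps1 (at most 1 count) and Amd-ps3 (0 counts) these copies had 8.08% of the counts of Amd1. How reads that match several genes were counted is not stated. With the copies' counts added, an alternative chosen after seeing the data, Amd1 had log2 values of -0.33 in mock and 0.45 in METTL7A1 cells, and both stayed on the same side of the threshold.

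The synthases follow in the pathway. Srm (chr4:148591503-148594619, plus strand, GRCm38) encodes spermidine synthase. In mock cells its level was 301, 398 and 344 CPM in sub-polysomal replicates A to C and 357, 311 and 357 CPM in polysomal replicates A to C, with the pools overlapping. The log2 difference was -0.03 (SE 0.14, adjusted p = 0.894 from edgeR), and it took the other sign without the filter (0.03) and with GC offsets (0.18). With factors within each pool it was called higher (0.40). In METTL7A1 cells the level was 519, 551 and 472 CPM in sub-polysomal replicates D to F and 337, 374 and 360.5 CPM in polysomal replicates D to F. There the pools did not overlap. The log2 change was -0.52 (SE 0.14, adjusted p = 0.00432 from edgeR). Srm has the highest GC content of the 8 principal transcripts (59.8%). With offsets that take out how GC content and counts go together in each library, its log2 difference was 0.12 in METTL7A1 cells (adjusted p = 0.413, over a range from 2.42e-05 to 0.586 across the alternatives that keep all libraries), so neither the direction nor the call held.

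Sms (chrX:157443855-157492287, minus strand, GRCm38) encodes spermine synthase, the last step. It had 45.6 to 59.8 CPM in sub-polysomal and 50.4 to 52.8 CPM in polysomal RNA of mock cells, a log2 difference of 0.05 (SE 0.15, adjusted p = 0.791 from edgeR). In METTL7A1 cells it had 32.8 to 45.2 CPM in sub-polysomal and 48.9 to 52.7 CPM in polysomal RNA. These pools did not overlap, and the log2 difference of 0.35 (SE 0.15) was just past the threshold (adjusted p = 0.0503 from edgeR). It was called higher with limma-voom (0.35), with the METTL7A1 libraries fitted alone (0.35), with the counts of its copies added (0.35), without mock sub-polysomal replicate A (0.34), without mock polysomal replicate A (0.35) and without METTL7A1 sub-polysomal replicate E (0.45). With GC offsets the value was 0.06 and with scaling to Actb 0.11, and neither passed. Its copies Sms-ps and Gm8234 had 2.41% of the counts of Sms.

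Sat1 (chrX:155213132-155216449, minus strand, GRCm38) encodes the acetyltransferase that marks spermidine and spermine for oxidation or export. In mock cells it had 130 to 147 CPM in sub-polysomal and 53.4 to 95.8 CPM in polysomal RNA, a log2 change of -0.86 (SE 0.17, adjusted p = 0.000427 from edgeR). In METTL7A1 cells it had 133 to 155 CPM in sub-polysomal and 69.0 to 80.0 CPM in polysomal RNA, a log2 change of -0.96 (SE 0.17, adjusted p = 8.78e-05 from edgeR). In neither kind of cell did the pools overlap, and the change held its direction and its call under all alternatives tried. Its copies Gm46610 and Gm5552 had 0.0797% of its counts. Sat1 and the antizymes were thus lower in polysomal RNA of both kinds of cells. Of the enzymes of synthesis, Odc1 was also lower in mock cells (-0.48) and Srm in METTL7A1 cells (-0.52). Whether function in the pathway goes with the distribution was not tested.

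Coding length varied with the distribution between pools across the whole table. Across 10845 tested genes with a coding sequence, the Spearman correlation of coding length with the log2 change from sub-polysomal to polysomal RNA was 0.546 in mock and 0.538 in METTL7A1 cells (genes are not independent replicates). The median coding length of the 8 mRNAs was 954 bases, against 1374 over those genes. Sat1 (513 bases), Oaz2 (567 bases) and Oaz1 (681 bases) have the shortest coding sequences of the 8 and were the lowest in polysomal RNA in both kinds of cells. Srm (906 bases), Amd1 (1002 bases) and Sms (1098 bases) are intermediate. Azin1 (1344 bases) and Odc1 (1383 bases) are of like length and lay on opposite sides, Azin1 higher in polysomal RNA of both kinds of cells and Odc1 lower in that of mock cells. The part of coding length in the members' changes was not tested.

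**Figure D3:**
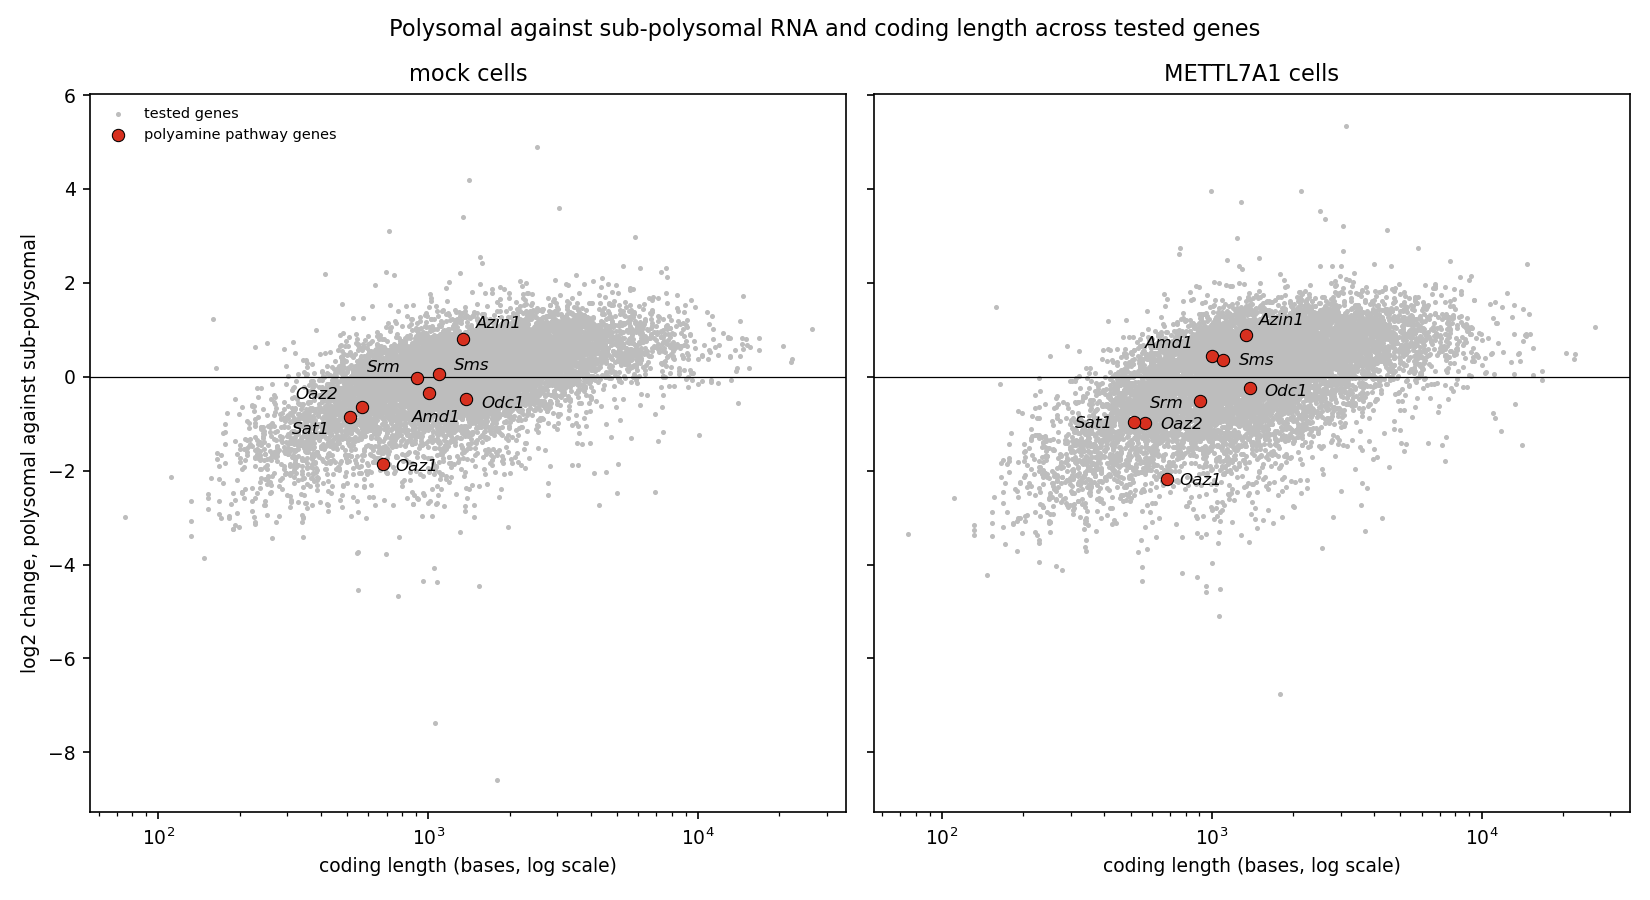
Log2 change from sub-polysomal to polysomal RNA (y axis) against coding length in bases (x axis, log scale) for 10845 tested genes (grey) and the 8 polyamine pathway genes (red), in mock cells (left) and METTL7A1 cells (right). Longer coding sequences go with higher values across genes (Spearman correlation 0.546 and 0.538), and Oaz1 lies lowest of the 8 in both kinds of cells.

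An ATG upstream of the start codon occurs in the principal transcripts of 5 of the 8 genes, against 51.3% of the genes with a coding sequence. Sms has 4 such ATGs, Azin1 has 3, Odc1 and Sat1 have 2 each and Amd1 has 1, while Oaz1, Oaz2 and Srm have 0. The transcript leader before the start codon is 590 bases long in Azin1, 489 in Odc1, 334 in Sms, 328 in Amd1, 281 in Sat1 and 198 in Oaz2, above a median of 178 over the genes with a coding sequence, and 117 in Srm and 74 in Oaz1, below it. The last of these upstream reading frames of Azin1, 30 bases long, ends 1 base before its start codon. Only frames that begin with ATG were sought, so upstream frames with another start codon are not counted here. Members with an upstream ATG were found on both sides: Azin1 was higher in polysomal RNA, and Sat1 was lower.

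METTL7A1 cells were then compared with mock cells within each pool, which asks whether the level of each mRNA in that pool differs between the genotypes. In polysomal RNA 0 of the 8 were higher (9.69% of all tested genes, 1185 genes) and 2 (Odc1 and Amd1) were lower (8.28%). By edgeR at an unadjusted p below 0.05 the genes that passed in either direction numbered 3819. In sub-polysomal RNA 1 (Srm) was higher (16.8% of all tested genes) and 2 (Odc1 and Amd1) were lower (14.5%). The strict call was met by 0 of the 8 in polysomal RNA (2.13% of all tested genes), with 0 by DESeq2 and 0 by limma-voom as well, and by Amd1 in sub-polysomal RNA (2.76%). The median log2 change of the 8 was -0.06 in each pool, against -0.01 in polysomal and -0.0015 in sub-polysomal RNA over all tested genes. In bulk RNA, fewer cells expressing an mRNA and less of it per cell cannot be told apart, and cell markers differed between these cells in both directions.

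Both decarboxylase mRNAs were lower in METTL7A1 cells. The values of Odc1 given above place the highest METTL7A1 library of either pool (570.0 CPM) below the lowest mock library of either pool (613 CPM). Its log2 change was -0.56 in polysomal RNA (SE 0.15, adjusted p = 0.0117 from edgeR) and -0.80 in sub-polysomal RNA (SE 0.15, adjusted p = 0.000478 from edgeR). The call in polysomal RNA was lost without mock polysomal replicate C (-0.48, adjusted p = 0.0515), without METTL7A1 polysomal replicate D (-0.54, adjusted p = 0.0538) and with scaling to Actb (-0.47, adjusted p = 0.0763), over a range of adjusted p from 5.72e-05 to 0.0763 across the alternatives that keep all libraries. The call in sub-polysomal RNA held under every alternative tried (highest adjusted p 0.0202).

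Amd1 had the largest difference between genotypes among the 8. Its mean level fell from 117 ± 27.7 CPM (SD, n = 3) in mock to 40.2 ± 2.93 CPM in METTL7A1 sub-polysomal RNA, and from 91.7 ± 17.8 CPM to 54.1 ± 4.06 CPM in polysomal RNA. In each pool all 3 METTL7A1 libraries lay below all 3 mock libraries. The log2 change was -1.53 in sub-polysomal RNA (SE 0.18, adjusted p = 8.36e-06 from edgeR) and -0.76 in polysomal RNA (SE 0.17, adjusted p = 0.00373 from edgeR). Both changes passed an adjusted p of 0.05 under every alternative tried. The strict call in sub-polysomal RNA was lost without mock sub-polysomal replicate A (-1.36), without METTL7A1 sub-polysomal replicate E (-1.48), with scaling to Actb (-1.29) and with GC offsets (-1.29), where the size of the change fell to 1.5 or less.

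Srm was the member with a higher level in METTL7A1 cells. In sub-polysomal RNA the mock libraries averaged 348 ± 48.2 CPM (SD, n = 3) and the METTL7A1 libraries 514 ± 40.0 CPM, without overlap, a log2 change of 0.56 (SE 0.14, adjusted p = 0.00652 from edgeR). In polysomal RNA its log2 difference was 0.07 (SE 0.14, adjusted p = 0.801 from edgeR), with overlapping libraries. Changes in sub-polysomal RNA went with GC content across the table: across 12157 genes the Spearman correlation of GC content with the log2 change between genotypes was 0.401 in sub-polysomal and 0.126 in polysomal RNA. With GC offsets the log2 difference of Srm in sub-polysomal RNA was 0.01 (adjusted p = 0.967, over a range from 0.000159 to 0.967 across the alternatives that keep all libraries). Amd1, with a GC content of 41.4%, had -1.29 in sub-polysomal and -0.72 in polysomal RNA with the same offsets, and Odc1, with 52.4%, had -0.85 and -0.56.

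**Figure D4:**
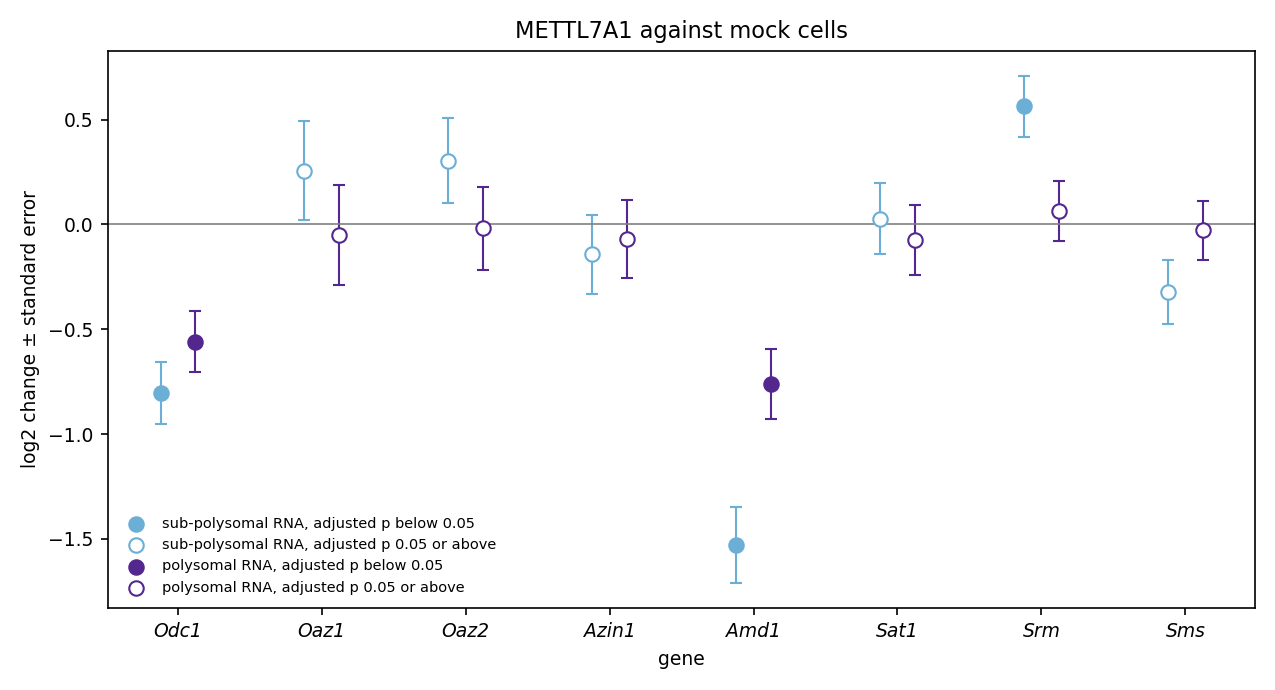
Log2 change of each mRNA from mock to METTL7A1 cells (y axis) in sub-polysomal and in polysomal RNA. Bars are standard errors from edgeR; filled points have an adjusted p below 0.05. Odc1 and Amd1 lie below 0 in both pools, and Srm above 0 in sub-polysomal RNA, a change that GC offsets take to 0.01.

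The other 5 members passed the test in neither pool. Their log2 differences between genotypes ran from -0.07 (Sat1) to -0.02 (Oaz2) in polysomal RNA and from -0.32 (Sms) to 0.30 (Oaz2) in sub-polysomal RNA. Oaz1 had a log2 difference of 0.26 in sub-polysomal RNA (SE 0.24, adjusted p = 0.435 from edgeR), with overlapping libraries. Oaz2 had all 3 METTL7A1 sub-polysomal libraries above all 3 mock ones, with a log2 difference of 0.30 (SE 0.20) that did not pass the test (adjusted p = 0.264 from edgeR). Sms had its 3 METTL7A1 sub-polysomal libraries below the mock ones by a narrow margin, 45.2 against 45.6 CPM, and its log2 difference of -0.32 (SE 0.15) did not pass either (adjusted p = 0.120 from edgeR). The antizyme inhibitor Azin1 had log2 differences of -0.07 (SE 0.18) and -0.14 (SE 0.19) in polysomal and sub-polysomal RNA, and the genotypes overlapped in each.

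The number of all tested genes that passed in polysomal RNA, 2197, varied with the libraries that were fitted. It was 1363, 1367 and 1550 without METTL7A1 polysomal replicates D, E and F, in that order. Without mock polysomal replicates A, B and C it was 2222, 1432 and 1886. Of the 8 mRNAs, 2 still passed without mock polysomal replicate A or B and without METTL7A1 polysomal replicate E or F. Without mock polysomal replicate C or METTL7A1 polysomal replicate D, 1 passed.

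Whether the distribution between pools differed between genotypes was tested as the difference of the log2 changes from sub-polysomal to polysomal RNA. By edgeR 0 of the 8 mRNAs and 0 of the 12224 genes passed (0%). At an unadjusted p below 0.05, 2 of the 8 (Amd1 and Srm) passed, against 15.6% of all tested genes (1911 genes). DESeq2 called 366 genes and limma-voom 0, with 0 of the 8 in either. Without the filter on low counts edgeR called 159 genes, and without mock polysomal replicate A it called 399, again with 0 of the 8. So the pool changes of Odc1, Amd1 and Srm given above, on 1 side of the threshold in mock and on the other in METTL7A1 cells, were not shown to differ between the genotypes. Amd1 had the largest difference, a log2 value of 0.77 (SE 0.24, unadjusted p = 0.00536 and adjusted p = 0.147 from edgeR). Srm had a log2 difference of -0.50 (SE 0.20, unadjusted p = 0.0248 and adjusted p = 0.251 from edgeR), which was -0.06 with GC offsets. The Spearman correlation of GC content with this difference was -0.425 across 12157 genes. The other 6 ranged from -0.32 (Oaz2) to 0.29 (Sms), and the median of the 8 was -0.01, as it was over all tested genes.

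Antizyme binds ornithine decarboxylase, and the antizyme inhibitor binds antizyme, so the balance of these mRNAs was taken as 1 value per library. It is the log2 ratio of the summed per-length levels of Oaz1 and Oaz2 to those of Odc1 and Azin1. Since all 4 levels come from the same library, the ratio does not depend on the scaling between libraries. In mock cells it was 0.55, 0.82 and 0.19 in sub-polysomal replicates A to C and -1.62, -0.86 and -0.56 in polysomal replicates A to C. Antizyme mRNA exceeded the mRNAs of its binding partners in each mock sub-polysomal library and fell short of them in each mock polysomal library. The difference of the means was -1.53 (p = 0.1 in an exact permutation test of both sides; 3 libraries against 3 allow none smaller).

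In METTL7A1 cells the ratio was 1.56, 1.54 and 1.49 in sub-polysomal replicates D to F and -0.85, -0.37 and -0.42 in polysomal replicates D to F. The pools were apart again, by -2.07 (exact permutation p = 0.1, again the smallest possible). In sub-polysomal RNA each METTL7A1 library had a higher ratio than any mock library, with a difference of 1.01 (exact permutation p = 0.1). On the linear scale the ratio there was 2.89 ± 0.0710 (SD, n = 3) in METTL7A1 and 1.45 ± 0.311 in mock cells. In polysomal RNA the genotypes overlapped, with a difference of 0.47 (exact permutation p = 0.2), which was 0.16 without mock polysomal replicate A. In sub-polysomal RNA the ratio of Oaz1 alone to Odc1 alone differed between genotypes by 1.08. Odc1 was lower there in METTL7A1 cells (log2 change -0.80), and the log2 difference of Oaz1 (0.26) did not pass the test. With GC offsets Oaz1 had a log2 difference of -0.11 between genotypes in sub-polysomal RNA and Odc1 one of -0.85, and the ratio itself was not recomputed with them.

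**Figure D5:**
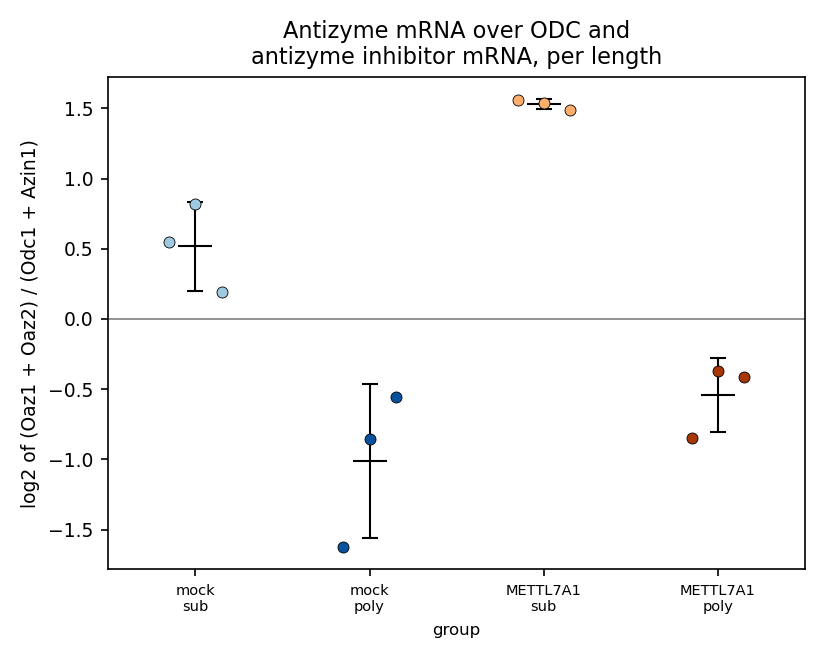
Log2 ratio of antizyme mRNA (Oaz1 and Oaz2) to ornithine decarboxylase and antizyme inhibitor mRNA (Odc1 and Azin1), from levels per length (y axis), in the 12 libraries by group (x axis). Points are libraries, and bars are the mean and SD of 3 libraries. The ratio lies above 0 in the 6 sub-polysomal and below 0 in the 6 polysomal libraries.

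The other genes of the pathway that were listed and passed the filter number 22. In polysomal against sub-polysomal RNA of mock cells 4 of the 22 were higher and 1 was lower (23.3% and 23.7% of all tested genes), with a median log2 change of 0.06 against 0.05 over all tested genes. The 4 are the ornithine aminotransferase Oat (log2 change 1.14, SE 0.18, adjusted p = 4.73e-05 from edgeR), the polyamine transporter Atp13a3 (0.80, SE 0.21, adjusted p = 0.00395), the arginine transporter Slc7a1 (0.69, SE 0.15, adjusted p = 0.00117) and the S-adenosylmethionine synthetase Mat2a (0.47, SE 0.14, adjusted p = 0.00952). The call of Mat2a was lost without mock sub-polysomal replicate B (0.39) and with scaling to Actb (0.37).

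In METTL7A1 cells 9 of the 22 were higher and 7 were lower in polysomal RNA (30.0% and 29.3% of all tested genes), with a median log2 change of 0.15 against 0.06 over all tested genes. Oat (1.45, SE 0.18, adjusted p = 1.66e-06 from edgeR) and Atp13a3 (1.32, SE 0.20, adjusted p = 2.34e-05) were again the highest of those named. Lower were Dohh, which completes the hypusine residue that is made from spermidine (-1.17, SE 0.14, adjusted p = 1.45e-06 from edgeR), and the second antizyme inhibitor Azin2 (-1.13, SE 0.24, adjusted p = 0.000479). With GC offsets both calls were lost, at -0.24 for Dohh and -0.51 for Azin2.

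Between genotypes, polysomal RNA had 3 of the 22 higher and 4 lower in METTL7A1 cells (9.69% and 8.28% of all tested genes), and sub-polysomal RNA had 5 higher and 5 lower (16.8% and 14.5%), with medians of -0.02 and -0.12 against -0.01 and -0.0015 over all tested genes. Of the enzymes that salvage methionine from the by-product of spermidine and spermine synthesis, the first, Mtap, was lower in both pools, with log2 changes of -0.65 (SE 0.14, adjusted p = 0.00316 from edgeR) and -0.84 (SE 0.14, adjusted p = 0.000268), and so was a later one, Adi1, with -0.71 (SE 0.13, adjusted p = 0.00114) and -0.89 (SE 0.15, adjusted p = 0.000324). The enzymes between them did not pass as lower: Mri1, named here after its values were seen, had log2 values of 0.18 (SE 0.16) and 0.83 (SE 0.17, adjusted p = 0.00128 from edgeR), and Apip and Enoph1 passed the test in neither pool. Dohh was higher in both pools, by a log2 of 0.57 in polysomal RNA (SE 0.14, adjusted p = 0.0079 from edgeR) and 1.49 in sub-polysomal RNA (SE 0.15, adjusted p = 1.09e-06), the latter 0.84 with GC offsets. Of the 4 genes listed for the hypusine branch, 3 were higher and 1 was lower in sub-polysomal RNA of METTL7A1 cells. Eif5a (0.50, SE 0.18) and Dhps (0.55, SE 0.13), named here after their values were seen, were higher there with Dohh. In polysomal RNA 1 of the 4 was higher and 1 was lower. Eif5a (-0.10, SE 0.18) and Dhps (-0.18, SE 0.13) had the other sign there and did not pass the test. Eif5a2, a second and less abundant gene for the translation factor that carries hypusine, was lower in both pools, by a log2 change of -0.91 in polysomal RNA (SE 0.25, adjusted p = 0.0175 from edgeR) and -1.17 in sub-polysomal RNA (SE 0.32, adjusted p = 0.00921). Its call in polysomal RNA was lost without mock polysomal replicate B (-0.70), without METTL7A1 polysomal replicate D (-0.81) or F (-0.85) and with scaling to Actb (-0.83). Atp13a3 was higher in polysomal RNA by a log2 of 0.68 (SE 0.19, adjusted p = 0.0198 from edgeR), a call lost without mock polysomal replicate B (0.70) or C (0.47) and without METTL7A1 polysomal replicate D (0.65) or F (0.65). In the test of the difference between genotypes in distribution, 0 of the 22 passed by edgeR.

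A list of 8 mRNAs outside the pathway with known upstream reading frames (Atf4, Atf5, Ddit3, Ppp1r15a, Ppp1r15b, Ifrd1, Slc35a4 and Eprs) was set beside them. In polysomal against sub-polysomal RNA, 1 of these was higher and 4 were lower in mock cells (23.3% and 23.7% of all tested genes; median log2 change -0.71 against 0.05), and 3 were higher and 5 lower in METTL7A1 cells (30.0% and 29.3%; median -1.16 against 0.06). Between genotypes 1 was higher in polysomal RNA (9.69% of all tested genes), and 5 were higher and 2 lower in sub-polysomal RNA (16.8% and 14.5%), with medians of 0.17 and 0.68.

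The genes whose log2 CPM followed a member most closely over the 12 libraries were sought among 9456 genes with a mean of at least 5 CPM. Libraries of 4 groups are shared by all these values, so a high correlation is partly the difference between pools. For Oaz1 they were Sec61b (Pearson correlation 0.996), Tomm5 and Ciao2b. For Oaz2 they were Gtf2h5 (0.980), Eif1 and Ddt, and for Sat1 Eif1b (0.994), Smim8 and Gltp. Azin1 was followed by Tead1 (0.984), Clock and Bptf, and Odc1 by Ank (0.981), Zbtb24 and Ppp2r5c. Amd1 was followed by Tut7 (0.975), Gtf3c6 and Entpd5, Srm by Otub1 (0.978), Ehmt2 and Stk19, and Sms by Kansl1 (0.952), Cryzl1 and Sepsecs.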

How the data were processed

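Polysomal and sub-polysomal RNA was sequenced from 4T1 cells, 3 libraries in each of 4 groups. The deposited values are raw counts per gene, which the authors made with STAR 2.5.3a and featureCounts on mm10 and GRCm38; the strand setting and the handling of reads that match several genes are not stated. The deposited gene length (another unit, bases of the exon union) was used for levels per kilobase. Genes reaching 1 CPM in 3 or more libraries were fitted with edgeR 4.0.16 in R 4.3.3 (TMM factors, quasi-likelihood, 1 mean per group, Benjamini-Hochberg over 12224 genes). The fit was also run on simulated counts with known changes, drawn from the model it assumes and without a trend in GC content. Alternatives used DESeq2 1.42.0 and limma 3.58.1 (limma-voom), RLE factors, TMM factors within each pool, Actb scaling, 2 other filters, GC offsets, a replicate block, only the compared groups, each library left out and, chosen after seeing the data, counts of copies added (at least 95% identity over 200 bases, BLAST 2.17.0+). Exact permutation tests used scipy 1.17.1, and figures matplotlib 3.10.9.

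Named are the members, Mettl7a1, markers, control mRNAs, copies with counts, 3 closest genes per member, and the 4 largest changes per comparison of the other pathway genes with an adjusted p below 0.05 and a mean of at least 5 CPM. The members and lists were chosen with earlier results of these data known. Transcripts, coordinates and sequences are from GENCODE (release M21, GRCm38).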

Additional observations from a re-analysis of the deposited data

How the results depend on the processing

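Each change of a member was recomputed under 22 or 23 alternatives, 12 of them leaving out a library, and the antizyme ratio under 9, 6 of them leaving out a library. The alternatives changed 1 choice at a time, apart from DESeq2, which brings its own size factors and test, and GC offsets, which were fitted on the 12157 genes with a GC content. Of 896 values of the 8 members, 827 kept their direction and their side of the adjusted p of 0.05, 20 lost the call, 10 gained it and 39 changed sign; the cause was not tested unless given. The calls of Oaz1, Azin1 and Sat1 between pools, and of Amd1 between genotypes in both pools and Odc1 between genotypes in sub-polysomal RNA, held under each at that threshold; the strict call of Oaz1 in mock cells was lost with factors within each pool (-1.45).

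The members passing the test numbered 5 (mock) and 6 (METTL7A1) between pools, and 2 (polysomal) and 3 (sub-polysomal) between genotypes. The strict call, a smaller set by construction, left 1, 1, 0 and 1 of them, and 923, 1480, 260 and 337 of all genes against 5746, 7248, 2197 and 3834. Between genotypes in polysomal RNA, scaling to Actb left 1 member, and leaving out single libraries left 1 to 2.

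TMM factors within each pool moved the median of all genes to 0.48 (mock) and 0.49 (METTL7A1) between pools. Genes called higher and lower went from 2850 and 2896 to 5871 and 1743 in mock cells, and from 3670 and 3578 to 5970 and 2356 in METTL7A1 cells. Between pools Amd1 became 0.084 and Srm 0.40 in mock cells, and Odc1 0.20 in METTL7A1 cells, all below the moved medians.

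Scaling to Actb moved the median to -0.18 between pools in METTL7A1 cells (2137 higher, 4230 lower), to 0.26 between genotypes in sub-polysomal RNA (3283 higher, 667 lower, from 2058 and 1776) and to -0.17 for the difference in distribution. In polysomal RNA between genotypes 1234 were higher and 495 lower, from 1185 and 1012. Sms became -0.038 between pools in mock cells. Between genotypes in polysomal RNA, where the median moved to 0.08, Oaz1 became 0.021, Oaz2 0.067, Azin1 0.042, Sat1 0.016 and Sms 0.074, all below that median; in sub-polysomal RNA Azin1 became 0.076, also below the median, and the difference in distribution of Azin1 became -0.034.

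With GC offsets, Srm became 0.18 (mock) and 0.12 (METTL7A1) and Sms -0.030 (mock) between pools. Between genotypes Srm became -0.056 and Sms 0.034 in polysomal RNA, and Oaz1 -0.11 and Azin1 0.052 in sub-polysomal RNA; the difference in distribution of Azin1 became -0.075. With limma-voom Oaz1 became 0.014 and Oaz2 0.043 between genotypes in polysomal RNA, and without a filter Srm became 0.026 between pools in mock cells.

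Leaving out each library in turn, the values that changed sign ranged between pools in mock cells from -0.15 to 0.080 (Srm), -0.016 to 0.14 (Sms) and -0.013 to 0.17 (Actb). Between genotypes in polysomal RNA they ranged from -0.32 to 0.25 (Oaz1), -0.28 to 0.15 (Oaz2), -0.19 to 0.040 (Azin1) and -0.28 to 0.11 (Sat1), and in sub-polysomal RNA from -0.34 to 0.081 (Azin1) and -0.039 to 0.073 (Sat1). The difference in distribution ranged from -0.15 to 0.27 (Azin1) and -0.31 to 0.086 (Sat1). None of these passed the test as reported. The genes passing between genotypes in polysomal RNA fell from 2197 to 1432 without mock polysomal replicate B. They fell to 1363, 1367 and 1550 without METTL7A1 polysomal replicates D, E and F. For the difference in distribution edgeR called 0 genes (1911 at an unadjusted p below 0.05), DESeq2 366 and limma-voom 0, edgeR without a filter 159, and edgeR without mock polysomal replicate A 399.

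With a replicate block on the shared letters, 5 members passed between pools in mock cells, 5 in METTL7A1 cells and 0 by edgeR for the difference in distribution, with 5389, 7017 and 0 of all genes. Deviations of libraries with the same letter correlated at -0.29 to 0.11 over 6 letters, so letters were not treated as pairs.

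The log2 antizyme ratio ranged from -1.76 to -1.22 (mock) and -2.16 to -1.92 (METTL7A1) between pools without single libraries, and between genotypes from 0.85 to 1.16 in sub-polysomal and 0.16 to 0.70 in polysomal RNA.

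Adding copies' counts to the members was chosen after seeing the data; of the members' calls it changed that of Sms, which passed between pools in METTL7A1 cells. Sms, the least abundant member, had 106 to 231 counts per library in mock and 99 to 182 in METTL7A1 sub-polysomal RNA; what more counts would change was not tested. A change that missed the threshold is not shown to be absent. How reads that match Amd1 and its copies alike were counted is not stated, and RNA amounts per pool were not used here, so changes between pools are relative.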
